A study of Mus musculus with 6 samples.

Results

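The genes described here are 30 genes of cholesterol metabolism, measured in preparations of mouse alveolar epithelial type 2 cells (AT2 cells, the surfactant-making cells of the lung). They were taken by symbol, for their known roles, from 13931 listed genes: 19 enzymes of synthesis, 6 genes of sterol sensing and regulation, and 5 genes of storage, intracellular transport and export. The study compared 3 C57BL/6 mice given PBS (titled sham) with 3 C57BL/6 mice given bleomycin at 1 U/kg in repeated exposures (titled mBLM), with 1 RNA sequencing library per mouse. Bleomycin is a DNA-breaking antibiotic that injures the lung. No genetic change is named for either group, with the age of the mice, the number, route and spacing of exposures and the way of isolating the cells not given in the sources used here. P-values measure the spread between these mice. All 30 genes were listed in all 6 libraries, and all 30 passed the filter on low values (1 FPKM or more in at least 3 libraries).

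Cholesterol is built from acetyl-CoA through mevalonate, farnesyl diphosphate, squalene and lanosterol. When the membrane of the endoplasmic reticulum is poor in sterol, the escort protein Scap carries the transcription factor SREBP2, the product of Srebf2, to the Golgi for activation, and SREBP2 then raises transcription of the synthesis genes. When sterol is plentiful, Insig proteins hold Scap back, and oxysterols activate the nuclear receptors called LXR, whose targets include the exporter Abca1. In the AT2 cell cholesterol is the main neutral lipid of surfactant, stored with phospholipid in lamellar bodies.

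Promoter sequences were read for the DNA element that SREBP2 binds and for the motifs of factors known to act with it. RefSeq windows of 300 bases (250 before and 50 after a start site, GRCm38.p6, the assembly of mm10) were given for 24 of the 30 genes. The window nearest to the start of the most abundant listed transcript was read. The RefSeq start lay 453 bases from the listed start for Pmvk, 214 for Msmo1, 111 for Hmgcs1 and 105 for Idi1. For the other genes the distance was at most 87 bases. The listed start came first for Pmvk, Msmo1 and Idi1, and the Pmvk window lay wholly after it. The core of the sterol regulatory element, TCACNCCA on either strand, occurred in 3 of the 24 windows (12.5%) and in 3.67% of the windows of 10595 listed genes. The 3 were those of Hmgcs1, Msmo1 and Srebf2, and each also held CCAAT, the motif of the cofactor NF-Y. The Msmo1 element lies after the start of the listed transcript. These 120-base stretches are shown because they hold the element, with both motifs in capitals (ATTGG is CCAAT on the other strand). They lie at chr13:119690158-119690277 on the plus strand (Hmgcs1), chr8:64733692-64733811 on the minus strand (Msmo1) and chr15:82147051-82147170 on the plus strand (Srebf2).
Hmgcs1: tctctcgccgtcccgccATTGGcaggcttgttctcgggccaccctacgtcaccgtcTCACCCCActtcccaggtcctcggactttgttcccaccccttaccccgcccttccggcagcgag
Msmo1: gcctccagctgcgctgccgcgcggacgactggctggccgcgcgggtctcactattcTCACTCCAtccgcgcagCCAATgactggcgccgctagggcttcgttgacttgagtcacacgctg
Srebf2: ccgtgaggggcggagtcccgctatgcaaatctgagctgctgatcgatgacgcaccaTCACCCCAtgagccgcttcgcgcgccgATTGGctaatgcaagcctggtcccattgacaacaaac

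CCAAT, on either strand, was found in 17 of the 24 windows (70.8%), against 37.7% of all windows. It stood in 13 of 16 synthesis windows, 2 of 5 sensing windows and 2 of 3 windows of the storage, transport and export genes. GGGCGG, the motif of Sp1, was found in 21 of 24 windows (87.5%) and in 63.6% of all. A match describes these letters only, and the windows of Fdft1, Fdps, Sqle, Rnf139, Npc1 and Stard4 were not analysed here. Of 7 genes that were lower with bleomycin and had a window, none held the sterol element and 6 held CCAAT. Of the 17 other genes with a window, 3 held the element and 11 (64.7%) held CCAAT. Since 3.67% of all windows held the element, 7 windows are too few to set the lower genes apart by its absence. They are also too few to set these genes apart by CCAAT. A stretch of 60 bases upstream of the RefSeq start site is shown for those 6, around the CCAAT closest to it on that side. For Idi1 the stretch lies after the start of the listed transcript, which is 105 bases before the RefSeq start. CCAAT or ATTGG is in capitals in these stretches. They lie at chr13:8885546-8885605 (Idi1, plus strand), chr10:76531516-76531575 (Lss, plus), chrX:72918461-72918520 (Nsdhl, plus), chr19:6067865-6067924 (Tm7sf2, minus), chr1:156474329-156474388 (Soat1, minus) and chr12:84773113-84773172 (Npc2, minus).
Idi1: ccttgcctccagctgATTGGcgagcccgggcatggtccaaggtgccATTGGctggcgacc
Lss: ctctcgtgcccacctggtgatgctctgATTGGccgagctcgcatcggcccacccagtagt
Nsdhl: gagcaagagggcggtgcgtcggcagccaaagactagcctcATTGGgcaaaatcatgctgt
Tm7sf2: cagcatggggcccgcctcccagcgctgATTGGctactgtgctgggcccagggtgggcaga
Soat1: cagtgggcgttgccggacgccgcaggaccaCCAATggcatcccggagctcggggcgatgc
Npc2: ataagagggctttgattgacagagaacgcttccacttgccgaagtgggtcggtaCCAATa

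Cell markers moved with the groups. The summed level of 11 AT2 marker genes was 17774.5 to 25827.7 FPKM in the PBS libraries and 3302 to 7583 with bleomycin, with 10 of 11 lower, while 5 of 5 pan-leukocyte genes were higher (sums of 18.1 to 29.6 and of 768 to 1218 FPKM). Higher too were 5 of 5 T cell genes, 5 of 7 macrophage genes (17.5 to 22.8 against 133 to 307 FPKM) and 6 of 6 endothelial genes, of which Cldn5 was at 0 in every PBS library. Cldn5, Cd3d, Cd3e, Lck and Adgre1 were under 1 FPKM in every PBS library. They met the filter on low values only through the bleomycin libraries. Of 5 fibroblast genes 3 were lower (sums of 1738 to 2444 FPKM with PBS and 419 to 1086 with bleomycin). Of 5 ciliated cell genes 2 were higher. None of 5 general epithelial genes passed (median log2 fold change -0.90). Their sums, 245 to 455 FPKM with PBS and 122 to 255 with bleomycin, were below those of the fibroblast genes. In such bulk samples fewer cells of a type and less RNA per cell cannot be told apart, and the part of these shifts in the results below was not tested. FPKM is a level per transcript length and library size, and the read depth is unknown.

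With bleomycin, synthesis enzymes and storage and lysosomal transport genes were lower in part, and the sensing gene Rnf139 was lower by far. Of the 30 genes, 10 fell and none rose (12 and 0 at an unadjusted p under 0.05) at an adjusted p under 0.05 (limma on log2(FPKM + 1), Benjamini-Hochberg adjustment over 12326 tested genes). Among all tested genes 7.34% fell and 15.2% rose at an adjusted p under 0.05. Their shares at an unadjusted p under 0.05 were not counted, so the unadjusted counts here and below have no background. By role, 7 of 19 synthesis enzymes, 1 of 6 sensing genes and 2 of 5 storage, transport and export genes fell. The median log2 fold change was -0.66 for synthesis, -0.16 for sensing and -0.59 for storage, transport and export, beside 0.09 for all tested genes. The groups' values did not overlap, and were lower with bleomycin, in 13 of the 30 genes. Over all tested genes 16.4% were lower and 27.2% were higher with no overlap. After scaling all libraries to 1 median, the all-gene median was -0.07 and rises made up 51.1% of all calls in place of 67.4%; 11 of the 30 genes then fell, the same 10 and Mvk.

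**Figure D1:**
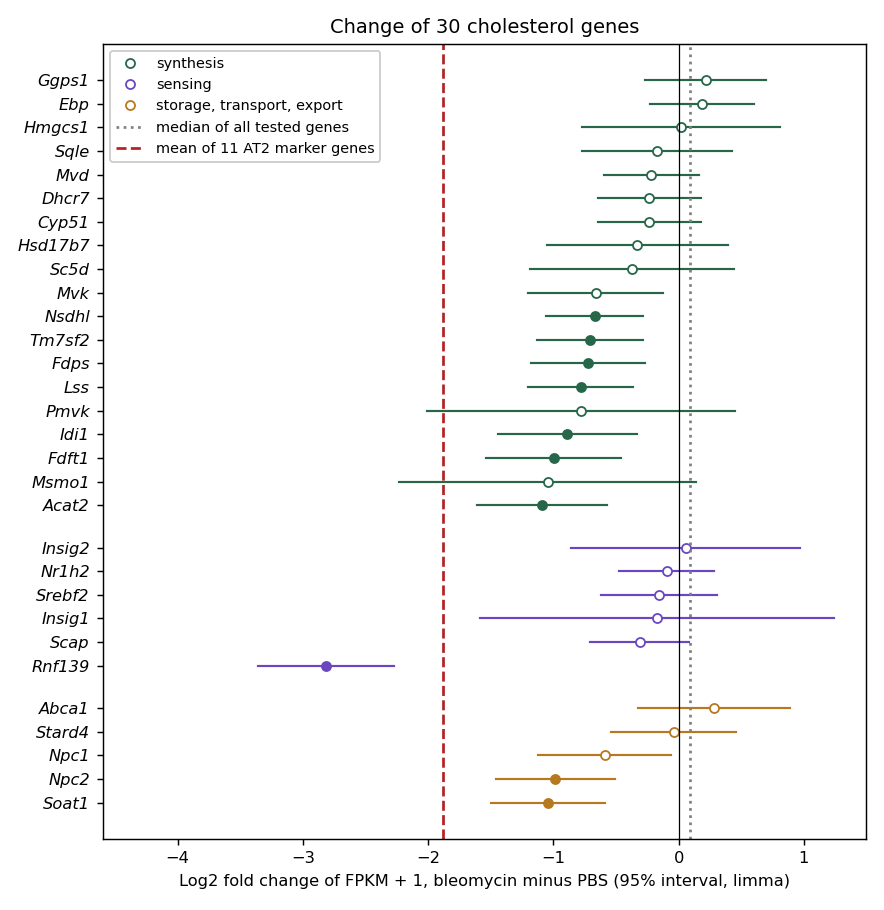
Log2 fold change of FPKM + 1 (bleomycin minus PBS, horizontal axis) of each of the 30 genes, grouped by role, with the 95% interval from limma; filled points passed an adjusted p of 0.05. The dotted line is the median of all tested genes (0.09) and the dashed line the mean change of 11 AT2 marker genes (-1.88), and only the point of Rnf139 lies to the left of the dashed line.

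In the first steps of synthesis, from acetyl-CoA to mevalonate, 1 of 2 enzymes fell. Acat2, the cytosolic thiolase that joins acetyl-CoA units (mm10 chromosome 17, 12942890 to 12960747), measured 25.9, 28.3 and 27.2 FPKM in the 3 PBS libraries (in the order of their replicate numbers, as in all such lists) and 13.8, 15.0 and 8.72 with bleomycin. Every bleomycin value was below every PBS value, and Acat2 fell by 1.09 ± 0.22 on the log2 scale (± SE, limma adjusted p = 0.0153). Hmgcs1, the HMG-CoA synthase that makes the next intermediate and whose promoter held the sterol element, did not pass. Its PBS values of 52.9, 21.4 and 41.9 FPKM enclosed the bleomycin values of 39.0, 39.7 and 32.0, and its log2 fold change was 0.02 (95% interval -0.77 to 0.81, adjusted p = 0.977).

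**Figure D2:**
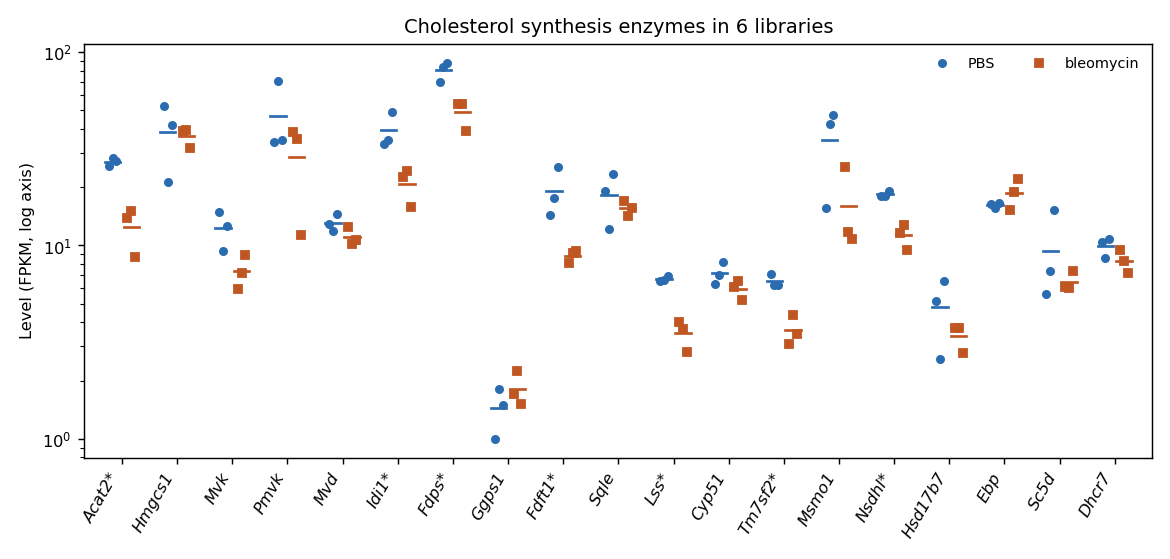
Level (FPKM, log axis) of the 19 synthesis enzymes in the order of the pathway, with 1 point per library (circles PBS, squares bleomycin), the group mean as a bar and an asterisk on the 7 genes that passed. The bleomycin points of the 7 marked genes and of Mvk lie below all their PBS points, while those of the other genes overlap them.

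Of the 6 genes between mevalonate and farnesyl or geranylgeranyl diphosphate, the isoprenoid units, 2 fell. Idi1, the isomerase of isopentenyl diphosphate, measured 33.6, 35.4 and 49.4 FPKM with PBS and 22.6, 24.3 and 15.8 with bleomycin, and fell by 0.89 ± 0.23 (limma adjusted p = 0.0373). Fdps, which makes farnesyl diphosphate, was the most abundant of the 19 enzymes. It measured 70.0, 84.4 and 88.3 FPKM with PBS and 53.8, 54.0 and 39.1 with bleomycin, without overlap, and fell by 0.72 ± 0.19 (adjusted p = 0.0387). The mevalonate kinase gene Mvk also had no overlap, with 14.8, 9.40 and 12.7 FPKM against 5.98, 7.20 and 8.94, but its adjusted p was 0.0812. For the next kinase, Pmvk, 1 library in each group stood apart: PBS replicate 2 was at 70.8 FPKM beside 34.3 and 35.03, and bleomycin replicate 3 at 11.3 beside 38.6 and 35.7. Mvd, the decarboxylase that follows, differed little (13.1 ± 1.32 and 11.1 ± 1.18 FPKM, mean ± SD, n = 3 each, log2 fold change -0.22, limma adjusted p = 0.364). Ggps1, which leads away from sterols to the lipid anchors of small GTPases, was the least abundant enzyme at 1.44 ± 0.412 and 1.82 ± 0.378 FPKM (limma adjusted p = 0.489).

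At the entry to the sterol branch 2 of 3 enzymes fell. Fdft1, the squalene synthase that commits farnesyl diphosphate to sterols (chromosome 14, 63145153 to 63177793), measured 14.4, 17.6 and 25.5 FPKM with PBS and 8.08, 9.11 and 9.36 with bleomycin. The spread was wide among the PBS libraries and narrow among the bleomycin libraries, and Fdft1 fell by 1.00 ± 0.23 (limma adjusted p = 0.0234). Lss, which closes squalene epoxide into lanosterol (chromosome 10, 76531607 to 76555479), was at 6.52, 6.64 and 6.94 FPKM and then at 4.02, 3.69 and 2.81. It fell by 0.78 ± 0.17 (adjusted p = 0.0221), and the SD of its PBS values was 0.216 FPKM. Sqle, the epoxidase between them, overlapped: 19.2, 12.1 and 23.4 FPKM with PBS and 16.9, 14.2 and 15.6 with bleomycin (log2 fold change -0.17, interval -0.77 to 0.42, adjusted p = 0.663).

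From lanosterol to cholesterol 2 of 8 enzymes fell. Tm7sf2, a sterol reductase, measured 7.13, 6.23 and 6.26 FPKM with PBS and 3.09, 4.35 and 3.47 with bleomycin and fell by 0.71 ± 0.18 (limma adjusted p = 0.0321). Nsdhl, a sterol dehydrogenase that acts in the removal of methyl groups, measured 18.1, 18.004 and 19.1 FPKM with PBS and 11.6, 12.8 and 9.45 with bleomycin and fell by 0.67 ± 0.16 (adjusted p = 0.0288). Neither gene's groups overlapped. Msmo1, the methyl oxidase that works beside Nsdhl and whose RefSeq window held the sterol element, had a larger mean difference (35.2 ± 17.1 and 16.0 ± 8.32 FPKM, n = 3 each) but did not pass (limma adjusted p = 0.18). PBS replicate 1 of Msmo1, at 15.7 FPKM, lay below bleomycin replicate 1, at 25.6. The other 5 showed overlap and adjusted p of 0.372 to 0.48: the lanosterol demethylase Cyp51 (-0.23), the keto reductase Hsd17b7 (-0.33), the isomerase Ebp (0.19), the desaturase Sc5d (-0.37) and the last reductase Dhcr7 (-0.23, all log2 fold changes). Sc5d was at 15.3 FPKM in PBS replicate 3 and between 5.60 and 7.36 in the other 5 libraries.

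The order of libraries within a group differed between enzymes. PBS replicate 1 was the lowest PBS library for 10 of the 19 enzymes and PBS replicate 2 for 9, while PBS replicate 3 was the lowest for none. Bleomycin replicate 3 was the lowest bleomycin library for 12. Its AT2 markers had a mean log2 level of 6.28, beside 7.27 and 7.22 in bleomycin replicates 1 and 2. Calls of the 7 enzymes were lost when 1 library was left out, which also cut the genes that fell among all tested from 905 to between 457 and 873. The median log2 fold change of the 19 enzymes was -0.66 with all libraries and -0.64 without PBS replicate 2. It was -0.54 without bleomycin replicate 1 and -0.45 without bleomycin replicate 3, and between -0.65 and -0.63 in the remaining omissions. Without bleomycin replicate 3, 3 of the 19 enzymes fell, while 873 of all tested genes did. Without PBS replicate 2 none of the 19 passed in limma (9 lower and 0 higher at an unadjusted p under 0.05). The share of all tested genes at that unadjusted threshold was not counted. Without PBS replicate 1 Acat2 and Fdft1 passed, and without PBS replicate 3 Fdft1 alone. Acat2 passed without any of the bleomycin libraries, joined by Lss without replicate 1, by Tm7sf2 and Nsdhl without replicate 2, and by Fdft1 and Lss without replicate 3. Idi1 and Fdps passed in none of these fits (adjusted p of 0.0605 to 0.101 and of 0.0525 to 0.112), and of the 30 genes only Rnf139 and Soat1 passed in all 6.

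**Figure D3:**
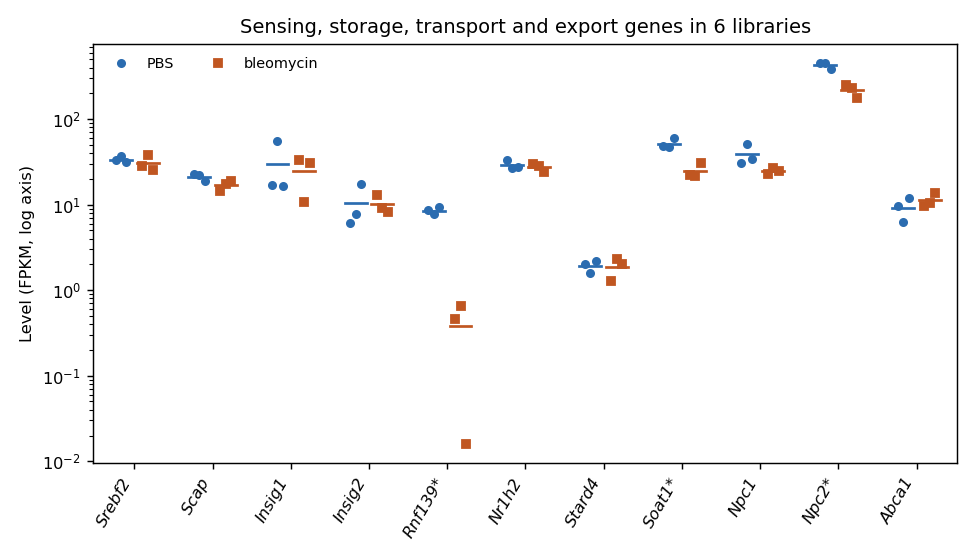
Level (FPKM, log axis) of the 6 sensing genes (Srebf2 to Nr1h2) and of the 5 genes of storage, transport and export, with 1 point per library (circles PBS, squares bleomycin) and the group mean as a bar. Asterisks mark Rnf139, Soat1 and Npc2, whose bleomycin points lie below all PBS points, and Rnf139 shows the widest gap.

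Among the sensing genes, the core machinery did not pass the test. Srebf2 (chromosome 15, 82147266 to 82205376) measured 32.9, 36.7 and 31.4 FPKM with PBS and 28.0, 38.5 and 25.1 with bleomycin (log2 fold change -0.16, interval -0.62 to 0.31, limma adjusted p = 0.603). Scap measured 22.7, 22.2 and 19.1 FPKM with PBS and 14.4, 17.7 and 19.1 with bleomycin (-0.31, interval -0.71 to 0.09, adjusted p = 0.225). The highest bleomycin value of Scap, 19.0701 FPKM, was just under its lowest PBS value, 19.0716. Nr1h2, which encodes the oxysterol receptor LXR beta, was at 29.3 ± 3.22 and 27.4 ± 3.01 FPKM (-0.09, interval -0.47 to 0.29, limma adjusted p = 0.709).

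The pair of Insig genes, whose products retain Scap in the endoplasmic reticulum, varied more between mice than between groups. Insig1, itself a known target of SREBP2, was at 17.0, 55.8 and 16.7 FPKM with PBS and at 32.99, 10.9 and 30.4 with bleomycin. Its standard deviation within groups, 0.91 on the log2 scale, was above that of 95.3% of tested genes, against a median of 0.29. Insig2 was at 6.05, 7.76 and 17.4 FPKM with PBS and at 12.9, 9.10 and 8.11 with bleomycin, and PBS replicate 3, its highest library, was the lowest PBS library for Insig1. The log2 ratio of Insig1 to Insig2, taken like all ratios here from FPKM + 1, was 1.35, 2.70 and -0.06 in the PBS libraries and 1.29, 0.23 and 1.79 with bleomycin, and did not differ beyond this spread (difference -0.23, exact permutation test, two-sided, p = 0.9). Limma gave adjusted p of 0.866 for Insig1 and 0.931 for Insig2, with intervals of -1.58 to 1.24 and -0.86 to 0.97 on the log2 scale.

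Rnf139 was the exception. It encodes TRC8, a ubiquitin ligase of the endoplasmic reticulum membrane with a sterol-sensing domain, which binds Insig proteins. The gene (ENSMUSG00000037075.6, chromosome 15, 58889229 to 58902390, plus strand) measured 8.55, 7.81 and 9.28 FPKM with PBS and 0.463, 0.659 and 0.016 with bleomycin. All 3 bleomycin values were under 1 FPKM, so Rnf139 met the filter on low values only through the PBS libraries. The PBS mean was 22.5 times the bleomycin mean. Rnf139 fell by 2.82 ± 0.23 on the log2 scale (limma adjusted p = 0.000401). Only 10 of 12326 tested genes had a lower log2 fold change, and of 7572 tested genes with a PBS mean of at least 5 FPKM, 9 had means at least 10 times lower with bleomycin. Since the bleomycin values are small, the size depends on the pseudocount: the log2 fold change was -4.55 with 0.1 FPKM and -1.33 with 5 FPKM, and limma called it in all 16 alternatives (adjusted p of 0.0002 to 0.00656).

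The files list 1 transcript of Rnf139, with 2 exons in GENCODE M21, of which the longer holds 93.9% of its 4348 bases. Of 160 tested genes with this structure (2 exons, the longer over 90% of the bases), 6.88% fell, beside 7.52% of the 9996 tested genes whose exons could be read. These shares count falls of any size. Whether exon structure, read coverage or the region had a part in the fall of Rnf139 was not tested. Nearby genes on chromosome 15 did not show the pattern. Tatdn1, a nuclease gene, was at 4.15 ± 0.499 and 3.78 ± 0.509 FPKM (n = 3 each, log2 fold change -0.11, limma adjusted p = 0.691). Ndufb9, of respiratory complex I, was at 38.7 ± 5.98 and 35.8 ± 1.501 FPKM (n = 3 each, -0.10, limma adjusted p = 0.69).

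**Figure D4:**
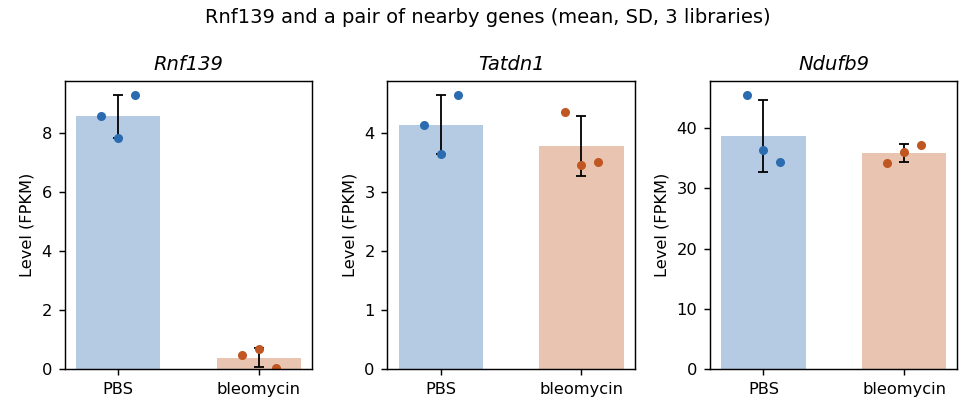
Level (FPKM, linear axis from 0) of Rnf139, Tatdn1 and Ndufb9 in PBS and bleomycin libraries; bars are means, error bars the SD of 3 libraries and points the libraries. Rnf139 lies between 7.81 and 9.28 with PBS and at 0.659 or less with bleomycin, while the points of the other 2 genes overlap.

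Storage and lysosomal transport genes fell in part. Soat1, which esterifies cholesterol for storage in droplets (chromosome 1, 156424525 to 156474331), measured 48.2, 47.4 and 59.6 FPKM with PBS and 22.2, 21.6 and 30.5 with bleomycin. The groups were well apart, and Soat1 fell by 1.04 ± 0.19 (limma adjusted p = 0.0112). Npc2, the soluble protein that passes cholesterol to Npc1 in the late endosome and lysosome (chromosome 12, 84754560 to 84773112), was the most abundant of the 30 genes, above 99.6% of listed genes by its PBS mean. It measured 453, 451 and 388 FPKM with PBS and 248, 232 and 177 with bleomycin and fell by 0.98 ± 0.20 (adjusted p = 0.016). The call of Npc2 was lost without PBS replicate 1 or 2 or bleomycin replicate 2 (adjusted p up to 0.0556). Npc1, the membrane partner, was at 30.5, 51.6 and 34.2 FPKM and at 22.9, 26.8 and 24.8, without overlap, but did not pass (-0.59 ± 0.22, limma adjusted p = 0.103). The log2 ratio of Npc1 to Npc2 was -3.85, -3.10 and -3.46 with PBS and -3.39, -3.07 and -2.79 with bleomycin (exact permutation test, two-sided, p = 0.2).

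The export gene Abca1, which passes cholesterol to apolipoproteins, was not lower. It measured 9.69, 6.27 and 11.8 FPKM with PBS and 9.72, 10.6 and 13.5 with bleomycin, with overlap (log2 fold change 0.29, interval -0.32 to 0.89, limma adjusted p = 0.461). Stard4, a cytosolic sterol carrier, was low in both groups, at 1.93 ± 0.329 and 1.88 ± 0.544 FPKM (limma adjusted p = 0.915). Within a library, the log2 ratio of Hmgcs1 to Abca1 was 2.33, 1.62 and 1.74 with PBS and 1.90, 1.81 and 1.18 with bleomycin (difference -0.27, exact permutation p = 0.6). That of Srebf2 to Scap was 0.52, 0.70 and 0.69 and then 0.91, 1.08 and 0.38 (difference 0.16, exact permutation p = 0.5). In all 4 ratios were tested, and the adjusted p was 0.8 or more for each, where 3 libraries against 3 cannot go below 0.1 before adjustment.

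Relative to the AT2 markers, whose mean log2 level was 1.88 lower with bleomycin, 29 of the 30 genes had the smaller change. A gene at the all-gene median log2 fold change of 0.09 also changed less than these markers. The share of all tested genes that did so was not counted, so the count does not set the 30 genes apart. The log2 level relative to the AT2 mean differed between groups by 0.79 for Acat2, 0.84 for Soat1, 0.90 for Npc2, 1.90 for Hmgcs1 and 2.17 for Abca1, in each case higher with bleomycin. For Rnf139 the difference was -0.94. These are descriptions of the same libraries without a test.

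The files list 61 transcripts of the 30 genes, and 18 of the genes have only 1. Of the 61, 44 passed the filter and 7 fell (limma over 17759 transcripts), where 3.97% of all tested transcripts fell. The 7 were the main transcripts of Acat2, Fdft1, Idi1, Lss, Npc2, Rnf139 and Soat1. Soat1-001 carried 96.7% of its gene's PBS level and fell by 1.11 ± 0.21 (adjusted p = 0.0174), and Acat2-001 carried 94.9% and fell by 1.04 (adjusted p = 0.0292). Nsdhl-001 and Fdps-001 missed the threshold in this limma fit over transcripts (adjusted p of 0.0505 and 0.0616). With the highest transcript in place of the sum, Fdps and Tm7sf2 no longer passed (Tm7sf2 adjusted p = 0.314), the latter split between transcripts of 57.1% and 42.9% of the PBS level.

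In some genes the transcripts varied while the sum did not pass, and Dhcr7 and Nr1h2 are given as examples. Others were Pmvk, where Pmvk-002 carried 8.27% of the PBS level and 26.0% with bleomycin, and Sc5d (Sc5d-202, 2.24% and 12.4%). Dhcr7 was assigned mainly to Dhcr7-001 in PBS replicate 1 (7.85 FPKM) and to a transcript with an earlier start, listed at 0 in that library, in PBS replicates 2 and 3 (8.58 and 9.87 FPKM), while its sum lay between 7.22 and 10.8 FPKM in all 6 libraries. The 9 listed transcripts of Nr1h2 differed in direction. Nr1h2-001 and Nr1h2-002 had log2 fold changes of -0.68 and -0.75, and Nr1h2-008 and Nr1h2-010 of 0.57 and 0.52, with adjusted p of 0.134 to 0.314, so none passed. The share of Nr1h2-010 in the summed level was 12.1% with PBS and 19.8% with bleomycin.

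Other genes of sterol metabolism were taken from a list of 6 groups, and 48 of its 49 listed genes were tested. Of these, 4 fell and 5 rose, with a median log2 fold change of -0.17. The 8.33% that fell is near the 7.34% of all tested genes, and 15.2% of all tested genes rose. In synthesis and substrate supply 2 of 6 fell and none rose (3 and 0 at an unadjusted p under 0.05 in limma). Acly, which supplies cytosolic acetyl-CoA, measured 77.3, 96.9 and 83.4 FPKM with PBS and 49.6, 53.9 and 41.1 with bleomycin, without overlap. It fell by 0.82 ± 0.17 (limma adjusted p = 0.0177) and Aacs, which activates acetoacetate, by 0.67 (adjusted p = 0.0325). Por, which passes electrons to Cyp51 and Sqle, did not overlap but did not pass (115 ± 36.0 and 62.2 ± 5.66 FPKM, n = 3 each, limma adjusted p = 0.0591). The call of Acly was lost without PBS replicate 2 or 3 (adjusted p up to 0.0583). Of the fits without 1 library, Aacs kept its call only in that without PBS replicate 1.

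In uptake 1 of 7 genes fell and 1 rose. Vldlr, a receptor for triglyceride-rich lipoprotein, measured 13.98, 13.2 and 18.99 FPKM with PBS and 5.16, 6.24 and 8.91 with bleomycin and fell by 1.09 ± 0.24 (limma adjusted p = 0.0213). Scarb1, the receptor for high-density lipoprotein, was at 7.62, 7.76 and 7.60 FPKM and at 15.3, 16.7 and 14.9, and rose by 0.94 ± 0.14 (adjusted p = 0.00475). The call of Scarb1 held without any 1 library. Among the fits without 1 library, Vldlr passed only in those without PBS replicate 2 or bleomycin replicate 3 (adjusted p in the others up to 0.0689), and it did not pass with the highest transcript (0.209). Mylip, a ubiquitin ligase that lowers lipoprotein uptake, was higher in each bleomycin library than in any PBS library (6.36 ± 2.89 and 10.3 ± 0.878 FPKM, n = 3 each) but did not pass (limma adjusted p = 0.178).

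**Figure D5:**
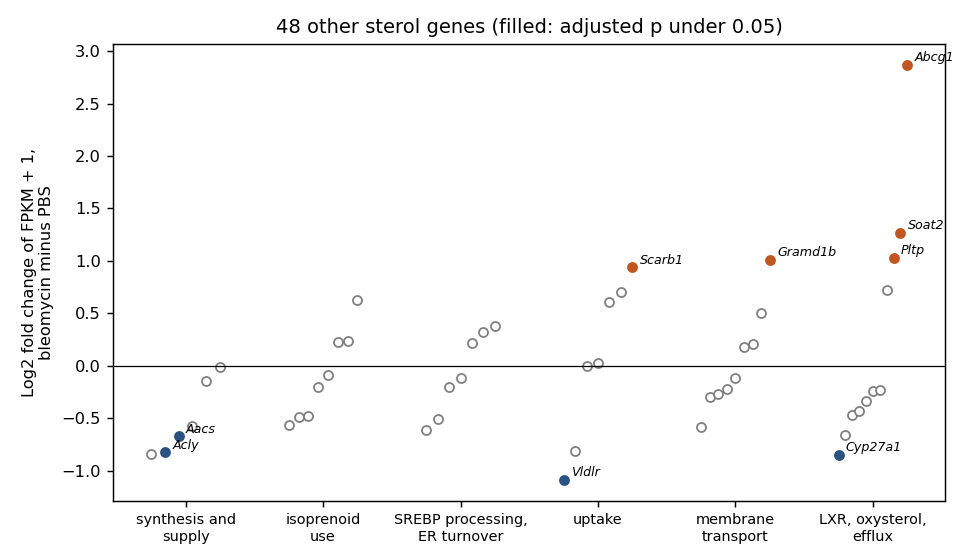
Log2 fold change of FPKM + 1 (bleomycin minus PBS, vertical axis) of 48 other sterol genes in 6 groups, with named filled points for genes that passed (blue lower, orange higher) and open points for the rest. The lower genes stand in synthesis and supply, uptake and the LXR, oxysterol and efflux group, and Abcg1 is the highest point at 2.87.

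In the group of LXR, oxysterol and efflux genes 3 of 11 tested rose and 1 fell. Abcg1, which exports cholesterol to high-density lipoprotein and is abundant in alveolar macrophages, was at 1.36, 1.01 and 0.85 FPKM with PBS and 14.5, 13.0 and 14.8 with bleomycin. It rose by 2.87 ± 0.17 (limma adjusted p = 0.000169), beside Abca1, which did not pass in the same libraries. Soat2, the second esterifying enzyme, was at 0.358, 0.266 and 0.147 FPKM with PBS and 2.32, 1.77 and 1.99 with bleomycin. It rose by 1.27 ± 0.16 (adjusted p = 0.00267), where Soat1 fell. Soat2 was low in both groups and met the filter on low values only through the bleomycin libraries. A filter of 5 FPKM left it out. Pltp, the phospholipid transfer protein, rose by 1.03 ± 0.21 (adjusted p = 0.0177), with its call lost without PBS replicate 2 or 3 or bleomycin replicate 2. Cyp27a1, which makes an oxysterol from cholesterol in mitochondria, fell by 0.85 ± 0.20 (adjusted p = 0.0254) and passed only without PBS replicate 2 or bleomycin replicate 3 among the fits without 1 library. The summed macrophage markers stood at 17.5 to 22.8 FPKM with PBS and 133 to 307 with bleomycin, and their part in these rises was not tested.

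In membrane transport 1 of 9 genes rose: Gramd1b, an Aster protein that carries cholesterol from the plasma membrane to the endoplasmic reticulum, was at 2.60, 4.05 and 3.44 FPKM and at 7.96, 7.09 and 8.17 (1.01 ± 0.19, limma adjusted p = 0.0116, and 0.136 with the highest transcript). In limma none of 7 genes of SREBP processing and turnover in the endoplasmic reticulum passed (0 at an unadjusted p under 0.05), nor any of 8 genes of isoprenoid use (2 at an unadjusted p under 0.05, both lower). Among the former were Erlin2, which acts in protein degradation there (13.8 ± 1.86 and 9.66 ± 2.95 FPKM, n = 3 each, limma adjusted p = 0.198), and Mbtps2, a protease that cuts SREBP (3.75 ± 0.894 and 5.13 ± 0.441 FPKM, n = 3 each, limma adjusted p = 0.219). Among the latter was Fnta, a subunit of the prenyl transferases (31.7 ± 3.83 and 22.4 ± 2.62 FPKM, n = 3 each, limma adjusted p = 0.0809).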

How the data were processed

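RNA sequencing libraries of 6 preparations, 3 per group by their titles, were analysed, 1 per mouse by the series' design. The authors deposited one FPKM value per transcript, per the file headers, for 24647 transcripts of 13931 genes, all marked protein coding. HISAT2, StringTie, FastQC 0.10.1 and the build mm10 are named per the submitters' processing notes. No annotation or settings were given in the sources used here. Whole reads could not be recovered from low values (at most 50.5% on a common step, within 0.05 of a whole number), so depth is unknown and no counting interval is given. Libraries sum to 253146 to 300697 listed FPKM.

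FPKM were summed by gene ID. Genes reaching 1 FPKM in 3 libraries or more were tested on log2(FPKM + 1), which understates changes of low genes, with limma 3.58.1 in R 4.3.3 (eBayes with a trend, no covariates, Benjamini-Hochberg over all genes, threshold 0.05). Intervals are limma's 95% intervals. Transcripts were fitted likewise. Ratios of members were compared with an exact permutation test. The fit was tested on simulated data. Start and end were checked against GENCODE M21 and are the same for all 21364 transcripts whose ID and version occur there.

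The 30 genes, the other lists and the rule for naming were chosen with earlier results of these data known. All 30 genes are named, with library values for those that passed and for the ratios, and up to 4 other sterol genes per group by adjusted p. Some genes of the lists are not reported here, and counts over the lists leave them out. Alternatives covered the pseudocount, filter, scaling, transcript choice, variance model, library weights, replicate number and each library left out.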

Additional observations from a re-analysis of the deposited data

How the results depend on the processing

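Among the 30 genes the same 10 fell, and none rose, with pseudocounts of 0.1 and 5 FPKM, no filter, a filter of 5 FPKM, no variance trend and library weights. With equal medians or quantile normalization Mvk was added and the log2 fold changes of Hmgcs1 and Insig2, which did not pass, turned negative, as did that of Ggps1 with quantile normalization, and with the highest transcript 8 of the 10 passed. Leaving out 1 library at a time, 0 to 3 of 19 synthesis enzymes fell in place of 7, and 1 to 2 of 5 storage, transport and export genes in place of 2. Of transcripts of the 30 genes 1 to 4 fell in place of 7. Of the other sterol genes 1 to 5 fell in place of 4, and 7 fell with equal medians and 8 with quantile normalization. Of all tested genes 457 to 873 fell in place of 905, 1412 fell with equal medians and 1441 with quantile normalization.

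With the replicate number as a block, 2 synthesis enzymes, 3 transcripts of the 30 genes, 2 other sterol genes and 563 genes in all fell, and 5 of the 10 (Acat2, Fdft1, Rnf139, Soat1 and Npc2) passed. The numbers do not pair the mice by any label. Deviations from the group means of same-numbered libraries correlated across genes with r of -0.00431, 0.0172 and 0.0391, and PBS replicate 1 correlated best with bleomycin replicate 2 (0.00814).

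The log2 ratio of Insig1 to Insig2 turned from -0.23 to 0.45 without PBS replicate 2 and to 0.21 without bleomycin replicate 2, with a range of -0.92 to 0.45 over the 6 omissions. The causes of these changes were not tested. The unknown depth limits what can be said of Rnf139 with bleomycin, of Stard4 and of Ggps1, the members near or under 2 FPKM.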
